A study of Homo sapiens with 8 samples.

Results

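The subunits of the mitochondrial respiratory chain were followed in 2 human bladder cancer cell lines, UM-UC-3 and RT112, after knock-down of PAI-1. Members were chosen by gene symbol, with no measured value in the rule: the MT-ND, MT-CO, MT-CYB and MT-ATP genes, the NDUFA, NDUFB, NDUFC, NDUFS and NDUFV genes, SDHA to SDHD, and the UQCR, COX4 to COX8 and ATP5 genes. The rule took 98 of 27475 human gene entries, of which 13 lie in the mitochondrial genome and 85 in the nucleus. They comprise 7 mitochondrial and 39 nuclear entries of complex I, 4 nuclear entries of complex II, 1 and 9 of complex III, 3 and 14 of complex IV, and 2 and 19 of complex V. Complexes were assigned by symbol. NDUFA4 and NDUFA4L2, which RefSeq names COXFA4 and COXFA4L2 after complex IV, were thus counted in complex I throughout. NDUFA7 has 2 entries, so the 98 entries carry 97 symbols. The rule also takes the related genes ATP5S and ATP5SL, which RefSeq names DMAC2L and DMAC2. Also taken are the near-identical copies ATP5EP2 (a pseudogene in RefSeq), ATP5L2 and UQCRHL, whose reads cannot be assigned with certainty. All of these were counted in the complex of their symbol. The rule misses COX4I1, CYC1 and a few other subunits and carriers that were kept as a separate list of 9.

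RNA-seq was performed on 8 libraries, 2 in each of 4 groups. Either line received for 72 h 100 pmol of siRNA against PAI-1 (siPAI-1) or of scrambled siRNA (Scr), each a mixture of 3 siRNAs, with INTERFERin as transfection reagent. All 4 groups were thus transfected, and no untransfected cells were compared. The lines were kept in RPMI or DMEM medium, and the methods do not say which line had which. A difference in medium, if there was one, cannot be told apart from a difference between the lines. Each line is 1 established line, and although the knock-down is described as repeated in independent experiments, more of them than the 2 libraries a group used here, the labels tie no library to an experiment. The p-values thus measure the spread between these libraries, which may be technical.

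Complexes I to IV pass electrons from NADH and succinate to oxygen. Complexes I, III and IV, but not II, also pump protons across the inner mitochondrial membrane. Complex V, the ATP synthase, uses the resulting proton gradient to make ATP. Mitochondrial DNA encodes core subunits of complexes I, III, IV and V, which are transcribed inside the organelle as long polycistronic RNAs, while all other subunits, and all of complex II, are encoded in the nucleus and imported. Complex II is also an enzyme of the citric acid cycle.

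The estimated depth was 29.2 to 34.2 M reads per library. Levels are given in TPM, which are length-scaled transcript shares of a library. All 5 epithelial markers (their sum was 208 to 227 TPM in UM-UC-3 against 7491 to 8058 TPM in RT112) and all 5 luminal urothelial markers (7.06 to 7.58 against 885 to 997 TPM) were higher in RT112 by the test, while 2 of 3 mesenchymal markers (2906 to 3196 against 14.1 to 26.8 TPM) were lower. VIM carried that sum, and the third marker, CDH2, stood at 10.6 and 9.22 TPM in UM-UC-3 Scr against 18.2 and 20.6 TPM in RT112 Scr (limma adjusted p = 0.0612). CDH1, which encodes E-cadherin, was at 0 to 0.48 TPM in UM-UC-3, so this line lacked a defining epithelial marker. The part of these cell states in the differences between lines was not tested.

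By mean level over the 8 libraries, transcripts from the mitochondrial genome other than MT-ND5 were the most abundant members. MT-ND5 stood below some nuclear members, among them COX7C (824 TPM) and ATP5B (794 TPM). Mean levels of the mitochondrial transcripts ran from 704 TPM for MT-ND5, a membrane arm subunit of complex I, to 5663 TPM for MT-ATP8, a small subunit of the ATP synthase. Summed over the 13 genes they reached 24469 and 26084 TPM in UM-UC-3 Scr, 2.45% and 2.61% of all transcripts, and 30402 and 30892 TPM in UM-UC-3 siPAI-1. In RT112 the sums were 38869 and 44677 TPM in Scr and 40366 and 48811 TPM in siPAI-1, the highest being 4.88% of all transcripts. TPM are shares of the mRNA of a library, so fewer mitochondria or cells and less RNA in each cannot be told apart here. Every RT112 library lay above every UM-UC-3 library, and in UM-UC-3 both siPAI-1 libraries lay above both Scr libraries. Among the 100 most abundant genes of a library, 5 mitochondrial members were found in each UM-UC-3 Scr library, 6 and 7 after siPAI-1, and 10 or 11 in each RT112 library.

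**Figure D1:**
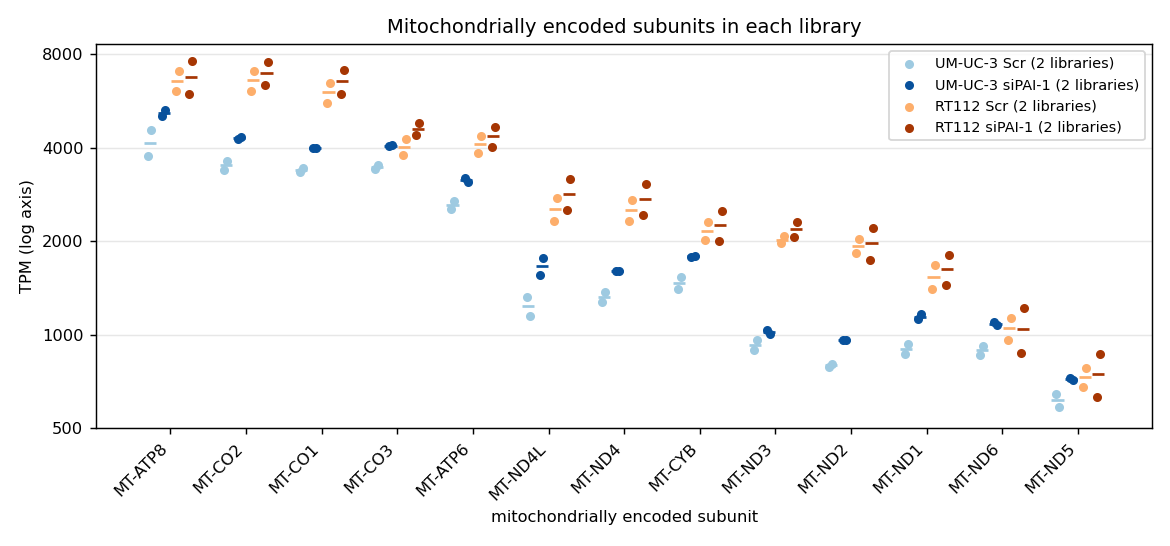
TPM of the 13 mitochondrially encoded subunits (log axis), with 1 point per library, a short line at the mean of the 2 libraries and 1 colour per group. In UM-UC-3 the siPAI-1 points lie above the Scr points for all 13 genes, while in RT112 the groups overlap for 12 of 13, and RT112 lies well above UM-UC-3 for MT-ND2 and MT-ND3 but not for MT-ND5 and MT-ND6.

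Of the 85 nuclear entries, 75 stood at 10 TPM or more in every library. Their mean levels ran from 19.6 TPM (ATP5S) to 824 TPM, with a median of 212 TPM. The highest in each complex were NDUFB9 in complex I (499 TPM), SDHB in complex II (162 TPM), UQCRB in complex III (590 TPM), COX7C in complex IV (824 TPM) and ATP5B, the catalytic beta subunit of the ATP synthase, in complex V (794 TPM). Summed over all nuclear members the levels were 17643 and 18987 TPM in UM-UC-3 Scr, 18546 and 18478 TPM in UM-UC-3 siPAI-1, 18244 and 18353 TPM in RT112 Scr, and 20888 and 18750 TPM in RT112 siPAI-1. The 8 sums lay close together, and the first RT112 siPAI-1 library stood above all others. COX6A2 and COX8C, tissue-restricted forms of complex IV subunits, were listed at 0 in all 8 libraries. NDUFA4L2, COX7A1, ATP5EP2 and ATP5L2 had means under 1 TPM.

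The 2 RT112 siPAI-1 libraries differed from each other in opposite directions for the 2 genomes. All 13 mitochondrial members were higher in the second library, by a median log2 ratio of 0.32, and 68 of the 75 nuclear members at 10 TPM or more were lower in it, by a median of -0.16. The corresponding medians were 0.21 and 0.00 between the RT112 Scr libraries, 0.10 and 0.07 between those of UM-UC-3 Scr, and 0.00 and -0.01 between the UM-UC-3 siPAI-1 libraries. Most summary values that rest on the RT112 siPAI-1 libraries are therefore also given without 1 of them. Not given that way are counts of calls between lines in siPAI-1 libraries and counts of members whose groups lay apart.

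The ratio of summed mitochondrial to summed nuclear members was 1.39 and 1.37 in UM-UC-3 Scr and 1.64 and 1.67 in UM-UC-3 siPAI-1, a difference of 0.26 on the log2 scale with no overlap. In RT112 it was 2.13 and 2.43 in Scr and 1.93 and 2.60 in siPAI-1, so that the siPAI-1 values enclosed the Scr values. On the log2 scale the difference between RT112 siPAI-1 and Scr was -0.02, and it became 0.19 without the first and -0.24 without the second siPAI-1 library. The ratio was 1.65-fold higher in RT112 than in UM-UC-3 in the Scr libraries and 1.37-fold higher in the siPAI-1 libraries, without overlap in either. In the Scr libraries the whole difference lay in the mitochondrial sum (1.65-fold), since the nuclear sums of the lines differed by a factor of 0.999.

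**Figure D2:**
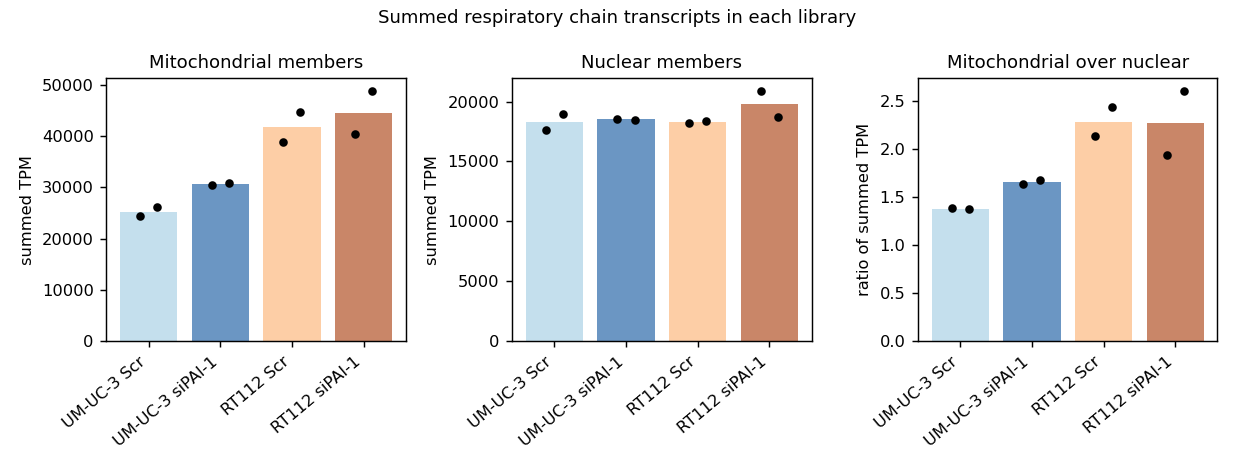
Summed TPM of the 13 mitochondrial members, summed TPM of the 85 nuclear members and their ratio, with 1 black point per library and bars at the mean of the 2 libraries. Nuclear sums sit between 17643 and 20888 TPM in all groups, while mitochondrial sums run from 24469 to 48811 TPM.

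Whether knock-down of PAI-1 changed respiratory chain transcripts was first asked in UM-UC-3. All 13 mitochondrial members were higher after siPAI-1, by log2 fold changes of 0.15 to 0.43 with a median of 0.28, and none passed the test. The siPAI-1 libraries lay above the Scr libraries for all 13, beside 15.1% of all genes tested. At an unadjusted p under 0.05, 12 of the 13 were higher, beside 2.6% of all genes, but the limma adjusted p-values were 0.791 to 0.832 over 18528 genes, so 0 members and 0.0% of all genes were called. That count of 12 was 10 without the first Scr library, 2 without the first and 1 without the second siPAI-1 library, and 2 without the trend in limma, while all 13 remained higher in each case. The 13 are transcribed from 1 genome as long polycistronic RNAs, so their counts here and below are not 13 separate observations. The median over all genes tested was -0.01.

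MT-ND1, a core subunit of complex I, had the smallest p of all members. It stood at 869 and 931 TPM in Scr and at 1126 and 1162 TPM after siPAI-1, a log2 fold change of 0.35 (SE 0.06, limma adjusted p = 0.791). The siPAI-1 libraries lay above both Scr libraries. MT-ND2 stood at 788 and 806 TPM in Scr and at 962 and 964 TPM after siPAI-1, which is 0.27 on the log2 scale with an SE of 0.05. MT-ND6, the only one of the 13 that is encoded on the light strand, stood at 858 and 923 TPM and then at 1100 and 1072 TPM, with a log2 fold change of 0.29. Genes of both strands were thus higher by similar amounts.

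In the oxidase, complex IV, the catalytic core subunits showed a like size. MT-CO1, which holds the haem of the catalytic centre, stood at 3328 and 3433 TPM in Scr and at 3983 and 3993 TPM after siPAI-1. MT-CO2, which accepts electrons from cytochrome c, stood at 3383 and 3634 TPM and then at 4250 and 4341 TPM. MT-CO3 stood at 3414 and 3522 TPM and then at 4040 and 4071 TPM, so the 3 log2 fold changes were 0.24, 0.29 and 0.23. MT-CYB, the cytochrome b of complex III, stood at 1400 and 1535 TPM in Scr and at 1782 and 1793 TPM after siPAI-1. The gap between the groups was again wider than that between the libraries of a group.

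The largest and the smallest values belonged to complex I. MT-ND4L had the highest log2 fold change, 0.43 (SE 0.10), from 1327 and 1153 TPM to 1562 and 1772 TPM, and MT-ND3 the lowest, 0.15 (SE 0.06), from 890 and 961 TPM to 1039 and 1007 TPM. MT-ND4L is short, at 297 bases, and shares 7 bases with MT-ND4. MT-ATP8, at 207 bases, shares 46 of them with MT-ATP6, so reads in the overlaps can be counted for either gene. Without these 2 pairs the log2 difference of the mitochondrial to nuclear ratio was 0.24 in place of 0.26. Values for MT-ND4, MT-ND5, MT-ATP6 and MT-ATP8 lay between those 2 extremes, at 0.28, 0.23, 0.27 and 0.32.

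Nuclear members of UM-UC-3 showed no common direction. After siPAI-1 45 of 83 tested were higher and 38 lower, around a median of 0.01 on the log2 scale. The groups lay apart upward for 12 and downward for 13 of the 85 entries, beside 15.1% and 17.1% of all genes, shares close to the background. The unadjusted p was under 0.05 for NDUFA6, NDUFC1, ATP5J and ATP5L among the higher, beside 2.6% of all genes, and for NDUFB4, NDUFV1 and UQCRHL among the lower, beside 3.41%, all with limma adjusted p-values of 0.791 to 0.823. These 7 were chosen with their values known. The 4 higher members became 16 without the second Scr library and 0 without the second siPAI-1 library.

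NDUFV1 carries the FMN and NADH binding site at the tip of the complex I arm. It stood at 204 and 212 TPM in UM-UC-3 Scr and at 187 and 166 TPM after siPAI-1, a log2 fold change of -0.24 (SE 0.07). NDUFB4, an accessory subunit of the membrane arm, stood at 411 and 446 TPM and then at 374 and 366 TPM. Both had lower values in each siPAI-1 library than in either Scr library. All 4 subunits of complex II were lower by small amounts, with a median of -0.05.

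In RT112 the picture by genome differed. The 13 mitochondrial members had a median log2 fold change of 0.08, with 12 higher and 1, MT-ND6, lower, and the siPAI-1 and Scr libraries overlapped for 12 of the 13. Only for MT-CO3 did both siPAI-1 libraries (4383 and 4800 TPM) lie above both Scr libraries (3778 and 4270 TPM), and 0 of 13 had an unadjusted p under 0.05. This direction rested on single libraries: 3 of 13 were higher without the second siPAI-1 library, 5 of 13 without the first Scr library, and all 13 without the first siPAI-1 library or without the second Scr library. The medians under these 4 omissions ran from -0.05 to 0.22.

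The nuclear members of RT112 were mostly higher after siPAI-1, by a small amount. The direction was upward for 69 of 82 tested and downward for 13, around a median of 0.11 on the log2 scale. Among those averaging 10 TPM or more, 68 of 75 were higher around a median of 0.12, and the median of all 8387 genes at that level was 0.00. The groups lay apart upward for 37 of 85 entries and downward for NDUFV3 and COX7A1, beside 18% and 14.7% of all genes tested. Without the first siPAI-1 library, the one with the high nuclear sum, 55 were higher and 27 lower with a median of 0.03, and without the second 73 were higher and 9 lower with a median of 0.19. Most nuclear members were thus higher in both cases, while their number and the size depended on the first library.

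None of these nuclear differences passed the test. The adjusted p was 0.838 for each of those named here, and 0 members were called, as were 0.0% of the 18437 genes tested. By the unadjusted p, 9 were higher under 0.05, beside 3.35% of all genes, and 1, COX7A1, was lower, beside 2.42%, with 0.14 and 0.42 TPM in Scr and 0 in both siPAI-1 libraries. The count of 9 was 3 without the first and 27 without the second siPAI-1 library, 2 without the first and 1 without the second Scr library. The 9 were NDUFB8, NDUFB7, NDUFA13, NDUFV1 and NDUFB1 of complex I, UQCRQ of complex III, COX7B of complex IV, and ATP5L and ATP5I of complex V.

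NDUFB8, a membrane arm subunit that is lost when complex I fails to assemble, had the smallest p. It stood at 198 and 201 TPM in RT112 Scr and at 243 and 228 TPM after siPAI-1, a log2 fold change of 0.24 (SE 0.06, limma adjusted p = 0.838). NDUFA13, also known as GRIM-19, stood at 152 and 168 TPM and then at 201 and 185 TPM. NDUFB7 stood at 59.6 and 56.8 TPM and then at 68.9 and 67.1 TPM. For all 3 the siPAI-1 libraries lay above the Scr libraries.

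By complex, the RT112 medians of nuclear members were 0.08 for I (36 of 39 higher), 0.11 for II (4 of 4), 0.11 for III (6 of 9), 0.16 for IV (9 of 12 tested) and 0.10 for V (14 of 18 tested). Without the first siPAI-1 library they were 0.03 (26 of 39 higher), 0.0055 (2 of 4), 0.01 (6 of 9), 0.04 (9 of 12) and 0.01 (12 of 18), and without the second 0.15, 0.22, 0.20, 0.25 and 0.20. In UM-UC-3 these medians were 0.01, -0.05, 0.06, 0.06 and 0.01. With all libraries the lower complex V entries of RT112 were ATP5J, ATP5S, ATP5SL and ATP5EP2, and all but ATP5J are related genes or copies. COX8A of complex IV illustrates the dependence on 1 library: it stood at 233 and 231 TPM in Scr and at 312 and 238 TPM after siPAI-1.

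**Figure D3:**
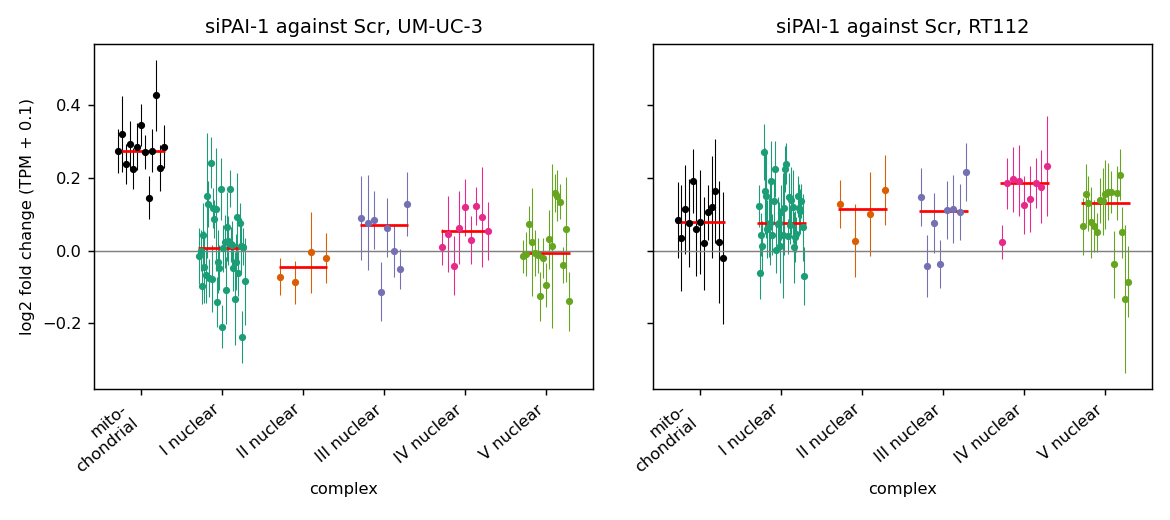
Log2 fold changes of siPAI-1 against Scr in UM-UC-3 (left) and RT112 (right) for the 88 members with at least 10 TPM in every library, with 1 point per gene, bars of 1 standard error from limma and a red line at the median of each set. In UM-UC-3 the mitochondrial set (median 0.28) stands above the nuclear sets, and in RT112 most points of all sets lie between 0 and 0.3 on the log2 scale.

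Over both lines together, with the line as a covariate, all 13 mitochondrial and 66 of 83 nuclear members were higher, with medians of 0.18 and 0.06. The unadjusted p was under 0.05 for 8 mitochondrial and 7 nuclear members among the higher, beside 2.57% of all genes, and for 1 nuclear member, UQCRHL, among the lower, beside 2.41%. The 8 became 1 without the second and 13 without the first RT112 siPAI-1 library, and 2 without the first RT112 Scr library or any 1 UM-UC-3 library. The 7 became 21 without the second UM-UC-3 Scr library. Without the first RT112 siPAI-1 library 48 of 83 nuclear members were higher, with a median of 0.01. The 3 smallest p-values belonged to MT-CO3 (log2 fold change 0.21, SE 0.05), NDUFC1 (0.16, SE 0.04) and ATP5L (0.17, SE 0.04), each with a limma adjusted p of 0.895, and 0.0% of the 20274 genes reached an adjusted p under 0.05. NDUFC1, a small accessory subunit of complex I, stood at 104 and 105 TPM in UM-UC-3 Scr and at 117 and 118 TPM after siPAI-1. In RT112 it stood at 44.8 and 43.3 TPM and then at 47.9 and 49.6 TPM, so that the siPAI-1 libraries lay above the Scr libraries in either line. In 9 members the siPAI-1 libraries lay above the Scr libraries in both lines, beside 2.51% of all genes: MT-CO3, NDUFA8, NDUFA9, NDUFC1, NDUFS7, COX7B, ATP5C1, ATP5J2 and ATP5L.

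The difference of the siPAI-1 effect between lines was tested as an interaction. All 13 mitochondrial members had the smaller effect in RT112, with a median difference of -0.22 on the log2 scale, but the smallest unadjusted p among them was 0.140 and none passed. Without the first RT112 siPAI-1 library, 5 of the 13 were higher in RT112 and the median was -0.07. Nuclear members had the larger effect in RT112 in 66 of 83 cases, with a median of 0.08, which became 48 of 83 and 0.0093 without the first RT112 siPAI-1 library and 67 of 83 and 0.16 without the second. With all libraries the unadjusted p of 6 was under 0.05 in that direction, beside 4.0% of all genes (2.76% in the other). These 6 became 12 without the first UM-UC-3 Scr library, 18 without the second RT112 siPAI-1 library, and 1 to 3 without any other. The adjusted p reached 0.05 for 0 members and for 0.0% of all genes. NDUFV1 had the smallest p, 0.00413 in limma, with a difference of 0.38 (SE 0.09) and an adjusted p of 0.620: in RT112 it stood at 194 and 194 TPM in Scr and at 213 and 214 TPM after siPAI-1, opposite to UM-UC-3. NDUFB4 followed with 0.32 and NDUFB7 with 0.33.

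The lines, whose medium may have differed too, differed far more than the treatments. In the Scr libraries 11 of 13 mitochondrial members were higher in RT112 than in UM-UC-3 at a limma adjusted p under 0.05, beside 25.0% of all genes called higher and 51.5% called in either direction. The median log2 fold change was 0.77, or 1.70-fold. For all 13 both RT112 libraries lay above both UM-UC-3 libraries, beside 32.8% of all genes tested. The siPAI-1 comparison takes its means from other libraries but shares the estimate of the spread with the Scr comparison. Its calls are thus not independent of those in Scr. In the siPAI-1 libraries 8 of the 13 were called higher, beside 26.1% of all genes called higher and 52.1% called in either direction. Their median was 0.50, and the groups lay apart for 11, beside 35.0% of all genes. All 8 were among the 11 called in Scr. The shares of all genes are not matched for level, and a larger share was called among genes averaging 10 TPM or more.

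The mitochondrial genes differed unequally between the lines. MT-ND2, a membrane arm subunit of complex I, stood at 788 and 806 TPM in UM-UC-3 Scr and at 1839 and 2032 TPM in RT112 Scr, 2.42-fold higher (log2 fold change 1.28, SE 0.11, limma adjusted p = 8.68e-05). MT-ND3 stood at 890 and 961 TPM against 1969 and 2079 TPM, 2.19-fold higher with an adjusted p of 2.20e-05 in limma. Complex IV genes split: MT-CO1 (1.78-fold) and MT-CO2 (1.87-fold) were clearly higher, while MT-CO3, at 3414 and 3522 against 3778 and 4270 TPM, was 1.16-fold higher with an adjusted p of 0.0427 in limma. That call of MT-CO3 was lost when any library but the first RT112 Scr library was left out.

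MT-ND5 and MT-ND6, neighbours on opposite strands of the mitochondrial genome, were not called. MT-ND5 stood at 644 and 587 TPM in UM-UC-3 Scr and at 681 and 780 TPM in RT112 Scr, with a log2 fold change of 0.25 (SE 0.15, limma adjusted p = 0.216). MT-ND6 stood at 858 and 923 against 961 and 1136 TPM, with 0.23 (SE 0.15, limma adjusted p = 0.265). In the siPAI-1 libraries the log2 fold changes of both were 0.04 and -0.08, and leaving out 1 RT112 siPAI-1 library moved them across 0. As shares of the mitochondrial sum in the Scr libraries, MT-ND2 took 3.09% and 3.22% in UM-UC-3 against 4.55% and 4.73% in RT112, and MT-CO3 took 13.5% and 13.95% against 9.56% and 9.72%. MT-ND6 took 3.51% and 3.54% against 2.47% and 2.54%. The composition of the mitochondrial transcripts thus differed between the lines without overlap for these 3 genes.

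MT-CYB and MT-ATP8 were called in Scr (log2 fold changes 0.55 and 0.66) but not in the siPAI-1 libraries (0.33 and 0.38, limma adjusted p = 0.0503 and 0.0638). Without the first UM-UC-3 Scr library their Scr adjusted p-values in limma were 0.06915 and 0.07389, and without the second RT112 Scr library 0.06478 and 0.0743, so both calls depended on single libraries. MT-ND1, called in both comparisons, had a limma adjusted p of 0.07625 to 0.0988 in the siPAI-1 comparison when either UM-UC-3 siPAI-1 library or the second RT112 siPAI-1 library was left out. The test of the siPAI-1 effect between lines, given above, is the test of whether the 2 line comparisons differ, and it was passed by none.

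The nuclear members moved in both directions between the lines. In Scr, 26 of 83 tested were called higher and 26 lower in RT112, beside 25.0% and 26.5% of all genes, around a median of -0.08 on the log2 scale. Of genes averaging 10 TPM or more, 69.8% were called in either direction, against 65.3% of the 75 nuclear members at that level, so the share of nuclear members called was near the background. In the siPAI-1 libraries 30 were called higher and 23 lower, beside 26.1% and 26.0% of all genes, and the groups lay apart upward for 36 and downward for 29, beside 35.0% and 35.4%. Of the 26 called higher in Scr 25 were also called higher in siPAI-1 (96.2% of the Scr and 83.3% of the siPAI-1 calls). Of the 26 called lower 21 were also called lower (80.8% and 91.3%). Both comparisons share the estimate of the spread, so this overlap is not an independent repeat. The count of 26 higher in Scr was 17 without the first UM-UC-3 and 13 without the first RT112 Scr library.

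**Figure D4:**
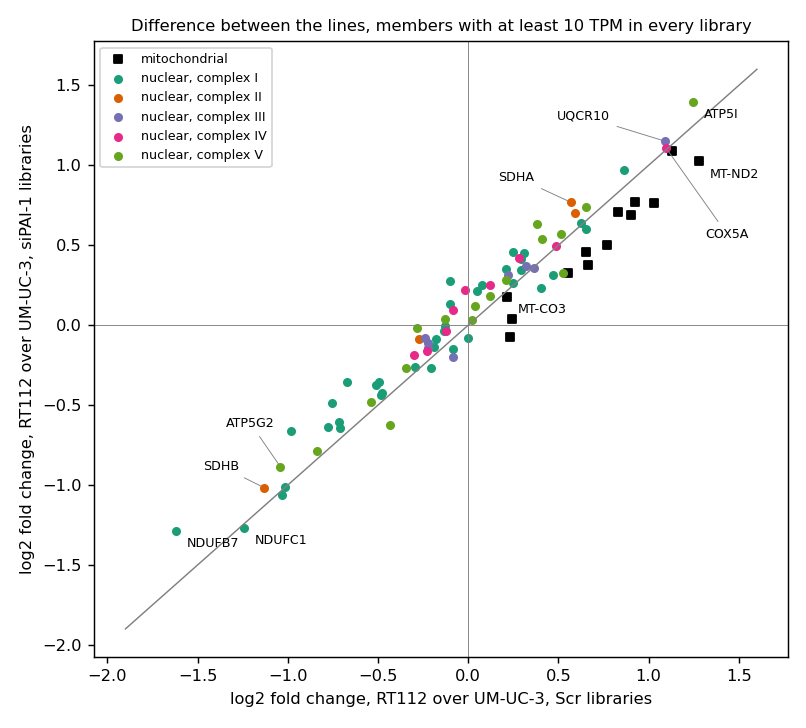
Log2 fold change of RT112 over UM-UC-3 in the Scr libraries (horizontal) and in the siPAI-1 libraries (vertical) for the 88 members with at least 10 TPM in every library, squares for mitochondrial and circles for nuclear members, with the line of equal values in grey. Nuclear members spread along the line from NDUFB7 (-1.62 and -1.29) to ATP5I (1.40 in the siPAI-1 libraries), and the mitochondrial squares lie below it.

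Complex II showed an opposite pattern within 1 enzyme of 4 subunits. SDHA, the flavoprotein that oxidises succinate, stood at 121 and 120 TPM in UM-UC-3 Scr and at 177 and 181 TPM in RT112 Scr, 1.48-fold higher (limma adjusted p = 0.000214). SDHB, the iron-sulphur subunit that binds SDHA, stood at 235 and 217 TPM against 99.9 and 106 TPM, a log2 fold change of -1.13 (SE 0.09, limma adjusted p = 6.56e-05). SDHC, a membrane anchor, stood at 104 and 83.6 TPM against 150 and 132 TPM, and the other anchor, SDHD, at 146 and 137 TPM against 119 and 115 TPM. In UM-UC-3 SDHB was the most abundant of the 4 and SDHC the least, while in RT112 Scr SDHA was the most abundant and SDHB the least. SDHA and SDHB kept their calls in the siPAI-1 libraries, with log2 fold changes of 0.77 and -1.02. The smaller differences of SDHC (0.59, adjusted p = 0.00826 in limma) and SDHD (-0.27, adjusted p = 0.0418 in limma) were less stable: SDHC lost its call without the second UM-UC-3 (adjusted p = 0.06568) or the first RT112 Scr library (0.07709), and SDHD lost it without any 1 of the 4 Scr libraries (0.1032 to 0.2025) or of the 2 UM-UC-3 siPAI-1 libraries (0.07557 and 0.07446). These subunits were named after their values were seen.

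**Figure D5:**
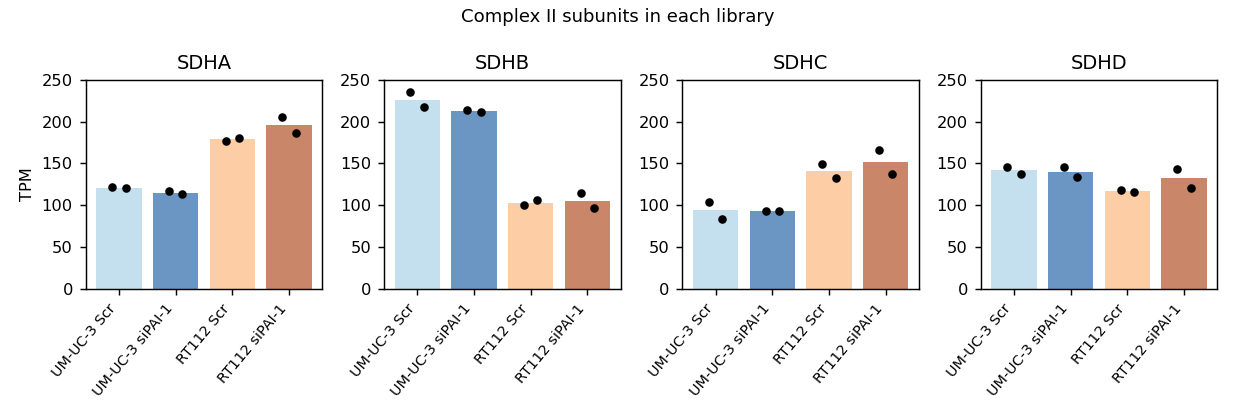
TPM of the 4 subunits of complex II, with 1 black point per library and bars at the mean of the 2 libraries of a group, all panels on the same axis from 0. SDHA and SDHC are higher in RT112, and SDHB is at 235 and 217 TPM in UM-UC-3 Scr but at 99.9 and 106 TPM in RT112 Scr.

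Promoters of SDHA, SDHB and SDHD are shown because these subunits of 1 enzyme differed between the lines in opposite directions. Each is the 250 bases before the start of the gene, from RefSeq on GRCh38.p14, at chr5:218070-218319 on the plus strand for SDHA, chr1:17054033-17054282 on the minus strand for SDHB, and chr11:112086623-112086872 on the plus strand for SDHD. Capitals mark matches, on either strand, to the palindromic motif of NRF1, a factor known to act on respiratory chain genes, and to the ETS motif of GABP (ACTTCCG).
SDHA: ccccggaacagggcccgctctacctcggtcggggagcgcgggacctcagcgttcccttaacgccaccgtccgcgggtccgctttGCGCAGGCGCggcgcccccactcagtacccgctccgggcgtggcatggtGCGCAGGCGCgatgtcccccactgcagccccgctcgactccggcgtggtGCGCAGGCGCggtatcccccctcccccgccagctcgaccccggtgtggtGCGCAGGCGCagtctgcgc
SDHB: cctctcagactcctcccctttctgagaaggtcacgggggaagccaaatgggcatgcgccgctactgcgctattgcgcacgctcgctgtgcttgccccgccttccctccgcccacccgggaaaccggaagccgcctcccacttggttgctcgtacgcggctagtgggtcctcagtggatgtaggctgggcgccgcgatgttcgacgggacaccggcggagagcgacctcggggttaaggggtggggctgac
SDHD: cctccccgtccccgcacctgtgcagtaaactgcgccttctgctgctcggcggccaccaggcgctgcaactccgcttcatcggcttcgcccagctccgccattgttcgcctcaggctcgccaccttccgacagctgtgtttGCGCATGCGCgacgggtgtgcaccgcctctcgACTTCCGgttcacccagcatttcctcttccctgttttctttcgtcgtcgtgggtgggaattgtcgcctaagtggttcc
The SDHA sequence holds 4 NRF1 matches, at 166, 117, 68 and 19 bases before the start. In SDHD there is 1 NRF1 match at 110 and 1 ETS match at 78 bases, and the SDHB window has no match to either. A match describes letters only, and no binding was measured in these libraries.

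The same motifs and that of YY1 were counted in windows of 300 bases (250 before to 50 after the start). Such an entry existed for 67 nuclear member genes, with 80 promoters in all. NRF1 matched 16 of the 80, beside 7.39% of 22199 promoters of protein coding genes. ETS matched 16.3%, beside 8.62%, and the YY1 motif (AANATGGC) matched 33.8%, beside 7.37%. At least 1 of the 3 motifs stood in 52.5% of member promoters and in 20.5% of those of protein coding genes. No test was made of these shares. In these longer windows SDHB has 1 YY1 match, while SDHA and SDHD have none.

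Complex I held several of the abundant nuclear members that were lowest in RT112 relative to UM-UC-3. NDUFB7, a membrane arm subunit, stood at 164 and 195 TPM in UM-UC-3 Scr and at 59.6 and 56.8 TPM in RT112 Scr, 3.08-fold lower in RT112 (log2 fold change -1.62, SE 0.08, limma adjusted p = 1.22e-05). NDUFC1 was 2.37-fold lower, at 104 and 105 against 44.8 and 43.3 TPM. NDUFA12, which sits at the base of the peripheral arm, stood at 261 and 306 against 145 and 132 TPM. The groups were far apart for all 3, and the siPAI-1 libraries gave log2 fold changes of -1.29, -1.27 and -1.06. In the opposite direction stood NDUFB11, an X-linked subunit, at 42.9 and 48.5 TPM against 82.4 and 83.9 TPM, with a log2 fold change of 0.86 in Scr and 0.97 in siPAI-1. Of the 39 nuclear complex I entries 11 were called higher and 15 lower in Scr, beside 25.0% and 26.5% of all genes.

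The NDUFA7 values cannot be read gene by gene. One entry, ENSG00000267855.5, stood at 51.8 to 104 TPM, and the other, ENSG00000167774.2, at 0 TPM in 4 libraries and at 3.71 to 10.8 TPM in the other 4, with values at and above 0 within every group. Both carry 1 symbol, and reads may have been split between them.

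In complex III, UQCR10, a small subunit, stood at 118 and 147 TPM in UM-UC-3 Scr and at 270 and 293 TPM in RT112 Scr, 2.13-fold higher. UQCRB and UQCRC2 were also called higher, with log2 fold changes of 0.37 and 0.32, and UQCRH lower, with -0.24, while 5 of the 9 entries did not pass. The calls of UQCRB, UQCRC2 and UQCRH were each lost without the first or the second RT112 Scr library (limma adjusted p = 0.059 to 0.1239). UQCRB and UQCRH also lost theirs without the first UM-UC-3 Scr library (0.08483 and 0.07063 in limma, adjusted), UQCRC2 and UQCRH without the second (0.123 and 0.1382) or without either UM-UC-3 siPAI-1 library (0.05565 to 0.06237). UQCR10 kept its call under every omission.

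Complex IV combined a large difference in a core nuclear subunit with differences in tissue-restricted paralogs. COX5A stood at 223 and 215 TPM in UM-UC-3 Scr and at 461 and 475 TPM in RT112 Scr, 2.14-fold higher (SE 0.04 on the log2 scale, limma adjusted p = 3.88e-06). COX4I1, which the rule does not take and which forms a contact of the oxidase with COX5A, stood at 447 and 485 against 1218 and 1202 TPM, 2.60-fold higher. Both lay well apart between the lines. COX6C was called higher (log2 fold change 0.49), and COX7A2 and COX7B lower (-0.30 and -0.23), the last 2 with calls that were lost without the second UM-UC-3 Scr library (limma adjusted p = 0.1546 and 0.1082) or the second RT112 Scr library (0.1521 and 0.05876). COX7B also lost its call without the first RT112 Scr library (0.1085 in limma, adjusted), and COX7A2 without either UM-UC-3 siPAI-1 library (0.06659 and 0.06535).

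COX7B2, a testis-enriched relative of COX7B, was present in UM-UC-3 at 14.3 and 9.80 TPM in Scr and at 15.1 and 13.8 TPM in siPAI-1, and in RT112 at 0.21, 0.11, 0.12 and 0 TPM. By an upper estimate those RT112 values stand for 0.0 to 2.3 reads, against 120 to 193 reads in UM-UC-3. The direction was called in both treatments, and the fitted log2 fold change depended on the pseudocount, from -3.47 to -6.19 in Scr. COX6B2, the corresponding relative of COX6B1, showed the opposite: 0.24 and 0.62 TPM in UM-UC-3 Scr against 2.80 and 3.79 TPM in RT112 Scr (limma adjusted p = 0.0126). That call was lost without the first UM-UC-3 (adjusted p = 0.1044) or either RT112 Scr library (0.06158 and 0.09189). The ubiquitous forms COX6B1 (398 to 599 TPM) and COX7B (246 to 325 TPM) were the main transcripts of both pairs in either line. NDUFA4L2, a paralog of NDUFA4 known to respond to hypoxia, was listed at 0, 0, 0 and 0.12 TPM in the UM-UC-3 libraries and at 0.61 to 1.22 TPM in RT112, an upper estimate of 13.8 to 29.4 reads.

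In complex V, ATP5I, the e subunit of the membrane part, stood at 159 and 258 TPM in UM-UC-3 Scr and at 475 and 487 TPM in RT112 Scr, 2.37-fold higher (SE 0.20 on the log2 scale, limma adjusted p = 0.00191), and ATP5O, part of the peripheral stalk, at 176 and 179 against 279 and 279 TPM, 1.57-fold higher. Both were also called higher in the siPAI-1 libraries. The genes ATP5G1, ATP5G2 and ATP5G3 encode the same mature c subunit, the ring that turns with the protons. ATP5G2 stood at 596 and 588 TPM in UM-UC-3 Scr and at 294 and 281 TPM in RT112 Scr, a log2 fold change of -1.04 (SE 0.08, limma adjusted p = 6.47e-05). ATP5G3 stood at 339 and 312 against 448 and 402 TPM (0.38) and ATP5G1 at 223 and 206 against 176 and 176 TPM (-0.28). The most abundant of the 3 was therefore ATP5G2 in UM-UC-3 and ATP5G3 in RT112. The calls of ATP5G1 and ATP5G3 depended on single libraries: ATP5G1 lost its call without the first UM-UC-3 or either RT112 Scr library (limma adjusted p = 0.0605 to 0.0727) and ATP5G3 without the second UM-UC-3 or the first RT112 Scr library (0.0813 and 0.0745).

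Chromosome 19 carries 11 of the 75 nuclear members at 10 TPM or more. Of these 11, 10 were lower in RT112 Scr than in UM-UC-3 Scr, and the median log2 fold change of the 11 was -0.76. Of the other 539 genes of that chromosome at this level, 80.0% were lower, with a median of -0.64, while over all chromosomes 51.0% were lower with a median of -0.02. The 11 are ATP5D, ATP5SL, COX6B1, NDUFA11, NDUFA13, NDUFA3, NDUFA7, NDUFB7, NDUFS7, UQCR11 and UQCRFS1. In the siPAI-1 libraries the member median was -0.49 and that of the other genes -0.63. On chromosome 21 the 3 members (ATP5J, ATP5O and NDUFV3) were all higher with a median of 0.62. Of the other 79 genes 70.9% were higher, with a median of 0.52. Both chromosomes were picked with the values known, and members did not follow the other genes everywhere. On chromosome X the median of 3 members was -0.23 and that of the other genes 0.16, on chromosome 14 it was -0.58 for 2 members and 0.01 for the others, and on chromosome 5 it was 0.06 for 6 members and -0.24 for the others. The part of chromosomal position in the differences was not tested.

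Genes outside the members that act on the respiratory chain were taken from lists of assembly factors, factors of mitochondrial gene expression, nuclear regulators, and subunits and carriers that the rule misses. In neither line did any of them pass the test after siPAI-1. Between the lines in Scr, 17 of 46 assembly factors were called higher and 11 lower in RT112, and 9 and 5 of 23 factors of mitochondrial gene expression. Of 9 nuclear regulators 4 were called higher and 0 lower, and of 8 subunits and carriers 2 and 2, all beside 25.0% and 26.5% of all genes. These shares are not matched for level. Among genes averaging 10 TPM or more the share called was larger, as given above for the nuclear members.

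Among factors of mitochondrial gene expression, the RNA polymerase of mitochondria, POLRMT, stood at 35.9 and 34.7 TPM in UM-UC-3 Scr and at 21.3 and 23.3 TPM in RT112 Scr, lower in RT112 (log2 fold change -0.66, limma adjusted p = 0.00045), opposite to the mitochondrial transcripts. LRPPRC, which stabilises mitochondrial mRNAs, stood at 89.2 and 73.9 against 126 and 133 TPM (0.67), and FASTKD2, an RNA-binding protein of mitochondria, at 20.3 and 19.3 against 41.8 and 40.7 TPM (1.06). All 3 lay apart between the lines, and each was called in the siPAI-1 libraries too. Of the regulators, ESRRA, an orphan receptor that acts on respiratory genes, was 1.63-fold higher, PPARGC1B 1.64-fold and GABPB2, at 1.07 and 2.01 against 4.68 and 5.35 TPM, 3.25-fold. PPARGC1B lost its call without the second RT112 Scr library (limma adjusted p = 0.0539).

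Among assembly factors the smallest p-values belonged to NDUFAF3, which acts on complex I and stood at 91.3 and 83.7 TPM in UM-UC-3 Scr against 31.6 and 33.1 TPM in RT112 Scr (2.70-fold lower), to COX19, a copper-related factor of complex IV, at 8.19 and 7.90 against 30.1 and 23.1 TPM, and to TMEM70, which acts on the ATP synthase and complex I, 1.42-fold higher. COX7A2L, which is found in supercomplexes of the chain, was 1.87-fold lower in RT112, and NDUFAB1, the mitochondrial acyl carrier protein, 1.38-fold higher. Assembly factors, like the subunits they serve, thus differed between the lines in both directions.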

How the data were processed

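The authors prepared libraries with a stranded mRNA kit and sequenced single reads of 75 bases. Per the labels the values are on GRCh38, and the deposited tables give TPM and FPKM for each gene. The submitters' processing notes name STAR 2.5.0 and RSEM 1.2.25, while the methods name cutadapt, STAR, featureCounts and a test on counts, so which program made the values is uncertain. The tables used here hold no counts, so limma was used. The 92 spike-in entries were at 0 and were left out, and 7201 human genes were at 0 in all libraries, where a 0 can be a failed estimate.

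Depth was estimated from the deposited FPKM of short genes as the read number, searched from 20 to 45 M, that brought most low values to whole reads (78.3% to 83.5% of them, within 0.05 reads plus the rounding of the file). Reads behind low genes use the longest transcript of GENCODE on GRCh37, so they are upper estimates, with counting error only.

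Two-sided limma 3.58.1 tests (R 4.3.3, lmFit, eBayes with trend) ran on log2(TPM + 0.1), which understates the change of low genes. P-values were adjusted by Benjamini-Hochberg over all genes above 0 in at least 1 fitted library. For siPAI-1 each line was fitted separately, and for the interaction and the lines all 8 libraries with 4 group means. Sums, ratios and list medians have no test. On simulated data with an assumed spread the UM-UC-3 siPAI-1 fit missed changes of the size seen in the members. The simulation changed randomly drawn genes and gave all genes the same length. Its spread was wider than that of the mitochondrial members in UM-UC-3. It therefore gives no recovery rate for the mitochondrial members themselves and cannot account for the 0 calls among them. A count of 0 called does not show that levels did not differ. Alternatives were other pseudocounts, FPKM, rescaling, a filter at 1 TPM, no trend, a replicate block, other sets of libraries, and each library left out.

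Named are the mitochondrial members, the 3 smallest p-values of each siPAI-1 comparison (mean of at least 1 TPM), the 6 highest and 6 lowest called nuclear members between lines, the most abundant nuclear member of each complex, paralog sets, the 3 smallest p-values of each further list, and members behind small counts. NDUFAF8, FASTKD4, MT-RNR1 and MT-RNR2 were not analysed here, and the level of the siRNA target is not reported here. All 85 nuclear members matched RefSeq, and 68 had a promoter entry. The members and lists were chosen with earlier results of these data known.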

Additional observations from a re-analysis of the deposited data

Results flagged for a closer look

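In 3 of the 98 members the siPAI-1 libraries lay below both Scr libraries in UM-UC-3 and above both in RT112. That share is near the 2.91% of the 20274 genes tested that had the same pattern. The 3 members were picked by this pattern, so their differences between lines are selected values. For NDUFV1, the NADH-binding subunit of complex I, the effect was larger in RT112 by 0.3753 on the log2 scale (limma adjusted p of the difference = 0.620). For SDHA, at 121 and 120 TPM against 116 and 113 TPM in UM-UC-3 and at 177 and 181 TPM against 205 and 187 TPM in RT112, the difference was 0.2006 (limma adjusted p = 0.723). For ATP5G1, at 223 and 206 TPM against 204 and 189 TPM and at 176 and 176 TPM against 202 and 186 TPM, it was 0.2649 (limma adjusted p = 0.695). None of the 3 differences passed the test.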

How the results depend on the processing

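Of 2382 alternative values for 155 results, 354 for lists and ratios stayed close to the reported value and 10 moved, and for single genes 1932 kept direction and call, 75 lost and 9 gained a call, and 2 reversed. Close meant a count within 1.5-fold, or a median or ratio that shifted by less than the spread between libraries of a group. This pooled SD on the log2 scale was 0.15 for mitochondrial medians, 0.10 for nuclear medians and 0.17 for ratios. It was scaled for the interaction and for both lines together. Values counted as close can thus differ in sign. The RT112 mitochondrial median after siPAI-1 went from 0.08 to -0.05 without the second siPAI-1 library. With medians in place of sums, the log2 difference of the mitochondrial to nuclear ratio between lines was 1.0372 in Scr and 0.7695 in siPAI-1. Leaving out 1 library, which leaves a group with a lone library assumed to vary like the others, gave 13 to 27 nuclear members called higher in RT112 Scr. In the siPAI-1 libraries it gave line medians of 0.3539 to 0.6622 for mitochondrial and -0.0691 to 0.1143 for nuclear members, ratio differences of 0.2232 to 0.6531, and log2 fold changes of -0.186 to 0.2683 for MT-ND5 and -0.3149 to 0.164 for MT-ND6, and for the siPAI-1 ratio in RT112 -0.2369 to 0.193. The low and high ends in the siPAI-1 libraries came without the second or the first RT112 siPAI-1 library. Rescaling without mitochondrial genes gives those genes no value. Over all genes, where 0 were called for siPAI-1, 2 were in RT112 with 1 fit over 8 libraries, 1 in UM-UC-3 and 1 over both lines with the 1 TPM filter, and in the difference between lines 7 without trend and up to 123 without the second RT112 siPAI-1 library, 0 of them members. Without trend, unadjusted counts fell to 2 mitochondrial members in UM-UC-3 and 1 nuclear member in RT112, and nuclear line calls in Scr to 18 higher and 19 lower. The causes were not tested.

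The labels tie same-numbered libraries by number only. Their deviations correlated over genes by 0.0437 (UM-UC-3) or -0.0431 (RT112). These values show no strong common shift but cannot tell whether such libraries came from the same experiment. With the replicate block, 0 members were called for siPAI-1, 11 mitochondrial and 26 and 26 nuclear members between lines in Scr, and 11, 29 and 21 in siPAI-1, where the mitochondrial count was 8 without it.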
